A study of Mus musculus with 2 samples.

Results

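The activator protein 1 (AP-1) transcription factors were examined in fibro-adipogenic progenitors (FAPs) cultured from mice, which are stromal cells of muscle with the capacity to become fat cells or fibroblasts. The 10 genes were chosen by name, namely *Fos*, *Fosb*, *Fosl1*, *Fosl2*, *Jun*, *Junb*, *Jund*, *Atf3*, *Maff* and *Batf3*, and each of them had 1 row among the 44291 genes listed for each library. The choice was made with earlier results of these data known. Wild-type (WT) FAPs received platelet-rich plasma (PRP) or vehicle, and both cultures were then kept in adipogenic induction medium that held insulin at 10 μg/ml, dexamethasone at 0.25 μM, IBMX at 0.5 mM and FBS at 20%. The labels call the treatment PRP, while the study's text describes exosomes that came from the PRP of young human donors. There was 1 library per group, PRP and control, and neither had a replicate. Young adult C57BL/6 mice are named in the methods, and the labels do not give the number of animals behind these cultures or the time of RNA harvest.

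AP-1 is a dimer of basic leucine zipper proteins. JUN proteins pair with each other or with FOS proteins, whereas FOS proteins need a JUN partner. ATF3, the small MAF protein MAFF and BATF3 belong to the same wider class and pair with some of these proteins. The dimers bind the TPA response element (TRE) or the cAMP response element (CRE), and many of their genes are immediate early genes that growth factors, serum, stress or cAMP switch on within minutes. In mesenchymal cells AP-1 is known for the control of proliferation, matrix-degrading enzymes and inflammatory mediators, and FOS and JUN proteins have been linked to the choice between adipocyte and other fates.

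Reads assigned to genes numbered 40120843 for PRP and 34139741 for control. The FAP label was checked on 8 marker genes, of which 7 had a mean of at least 1 FPKM (reads scaled for gene length and for sequencing depth) and all 7 were lower in the PRP library. Of all 13401 genes with such a mean, 6586 were lower in that library. *Pdgfra*, the receptor by which FAPs are commonly identified, had 19.8 FPKM under PRP and 28.0 FPKM under vehicle. The summed level of 8 platelet and erythroid markers was 1.74 FPKM under PRP and 1.80 FPKM under vehicle, with *Gp9* and *Ppbp* listed at 0 in both. The 8 macrophage markers summed to 10.4 and 10.7 FPKM, with *Cd68* higher under PRP (4.56 and 2.31 FPKM) and *Lyz2* lower (4.91 and 7.57 FPKM). Each of the other macrophage markers was below 1 FPKM in both. The 4 T cell markers summed to 0.0508 and 0.0442 FPKM, and 5 myogenic markers to 18.0 and 14.6 FPKM, with *Pax7*, *Myog* and the T cell gene *Cd3d* at 0 in both. The myogenic sum came mostly from *Acta1* (15.1 and 11.1 FPKM) and *Des* (2.91 and 3.39 FPKM), and *Myod1* had 0 and 0.0315 FPKM. Endothelial markers summed to 9.59 FPKM under PRP and 5.46 FPKM under vehicle over 6 genes, none of which was at 0. Among them *Kdr* was more than 2-fold higher in the PRP library, while *Pecam1* had 0.188 and 0.0470 FPKM. Their part in the AP-1 values was not tested. In bulk RNA, a different number of cells of one kind and a different amount of RNA per cell cannot be told apart.

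Most AP-1 genes had more transcript in the PRP library. Of the 10 genes, 8 had a mean of at least 1 FPKM. Of these 8 genes, 7 were higher and 1 was lower in the PRP library, while 6815 of all 13401 genes above this level were higher and 6586 were lower. The fold change is given as log2(PRP FPKM + 1) minus log2(control FPKM + 1), a scale on which weakly expressed genes show too small a difference. On this scale *Fosl1*, *Atf3* and *Maff* were at least 2-fold higher, which is 3 of 8 genes against 2.00% of the 13401 genes with a mean of at least 1 FPKM. None of the 8 was at least 2-fold lower, against 0.828% of all genes. *Fos* and *Junb* joined them at a 1.5-fold threshold, which makes 5 of 8 genes against 6.15%. The median log2 fold change of the 8 genes was 0.63, and that of all 13401 genes was 0.01. Since the set was chosen with earlier results of these data known, its counts and median are a description.

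**Figure D1:**
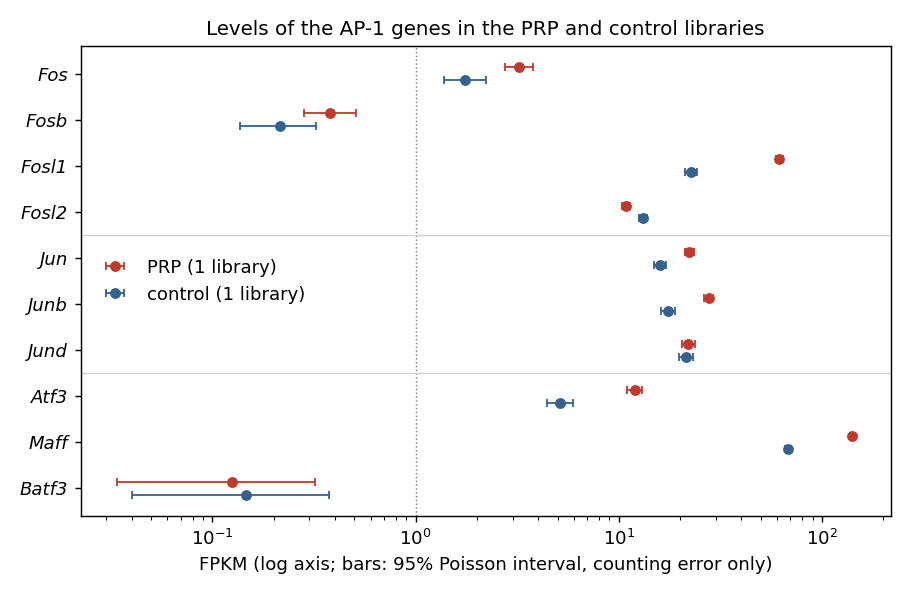
FPKM of each AP-1 gene (log axis) in the PRP library (red) and the control library (blue), with 95% Poisson intervals that cover counting error only and a dotted line at 1 FPKM. *Maff* lies highest in both libraries, at 140.1 and 68.2 FPKM, and *Fosb* and *Batf3* lie below 1 FPKM in both.

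The levels spanned a wide range. In the control library the order was *Maff*, *Fosl1*, *Jund*, *Junb*, *Jun*, *Fosl2*, *Atf3*, *Fos*, *Fosb* and *Batf3*. In the PRP library *Junb* and *Jun* stood above *Jund*, and *Atf3* stood above *Fosl2*. Among neighbours in the control order, the counting intervals of *Fosl1* and *Jund* overlapped, as did those of *Junb* and *Jun*, and of *Fosb* and *Batf3*. In the PRP library the intervals of *Jun* and *Jund* overlapped, as did those of *Atf3* and *Fosl2*, and of *Fosb* and *Batf3*. The other neighbours were separated by more than counting error. *Fosl1* and *Jund* share 57.2% and 52.6% of their exon length with other genes, so their places in both orders are uncertain beyond counting error.

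Counting intervals of the ratio between the libraries were available for all 8 genes with a mean of at least 1 FPKM. They are exact Clopper-Pearson 95% binomial intervals on fragments, they cover counting error only, and they compare 2 libraries and not 2 treatments. The interval lay above 1 for 6 genes, against 26.2% of the 12367 genes with such a mean and whole reads in both libraries. It lay below 1 for *Fosl2* alone, against 26.1% of those genes, and it included 1 for *Jund*. As above, these counts describe a set chosen with results known.

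**Figure D2:**
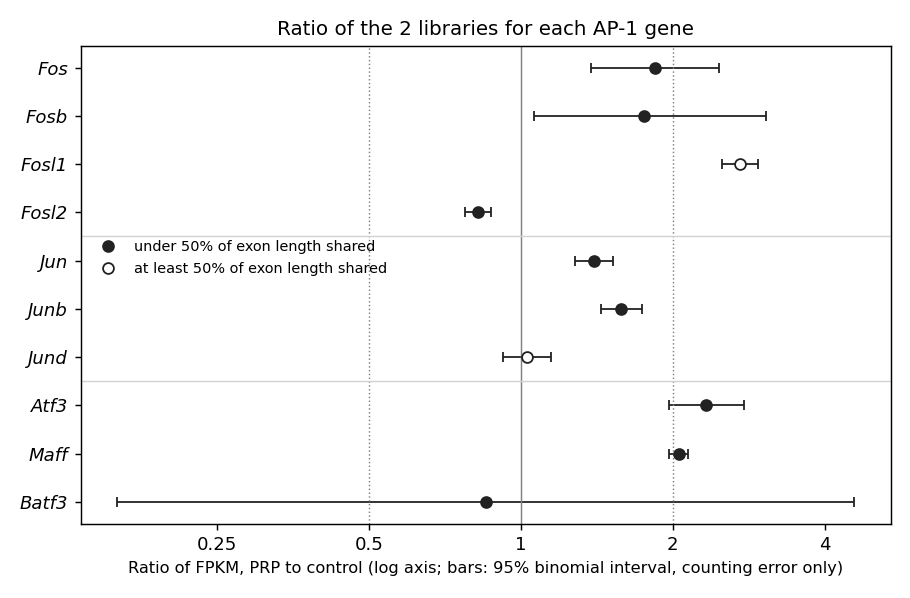
Ratio of FPKM in the PRP library to FPKM in the control library for each AP-1 gene (log axis), with 95% binomial intervals that cover counting error only. Dotted lines mark 2-fold differences in either direction, and open circles mark genes with at least 50% of their exons inside those of another gene. *Fosl1*, *Atf3* and *Maff* lie past 2, *Jund* lies on 1 and *Fosl2* lies below 1.

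Promoter sequences of 9 of the genes, all but *Fosl1*, were read from RefSeq (GRCm38.p6) as windows from 250 bases before to 50 bases after each start, 11 windows in all, since *Maff* has 3 starts. Both strands were searched for the TRE (TGACTCA or TGAGTCA), the CRE (TGACGTCA), the core of the CRE (TGACG), the wider site TGACNTCA and the CArG box of serum response factor. The full CRE is a case of TGACNTCA and contains the core on each strand. IBMX, which both cultures received, raises cAMP, and cAMP acts on the CRE through CREB. The full CRE was found in 1 of the 9 genes, against 2.03% of 27025 genes, and TGACNTCA in 2 of 9 against 10.02%. The core was found in 5 of 9 genes against 23.05%. The core and the full CRE contain CG, and the AP-1 windows held a median of 21 CG against 7 over all 32851 windows, with a median G and C content of 61.3% against 52.7%, so these shares do not compare windows of like composition. The part of composition in the counts was not tested. The TRE and the CArG box were in none of the 11 windows of these 9 genes, against 5.95% and 1.81% of all genes. At shares this low, their absence from 9 genes is no finding. Sites more than 250 bases before a start were not searched. Stretches around most of these sites are printed below with each gene, 5′ to 3′ on the gene's strand, with the matched letters in capitals and positions counted from the start. A match is a description of letters and was not tested as a binding site. The RefSeq starts are not the outermost M21 starts for every gene: that of *Atf3* lies 34706 bases downstream, those of *Fosl2* and *Batf3* 671 and 567 bases downstream, and that of *Jund* 1210 bases upstream. Other starts of these genes were not searched.

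**Figure D3:**
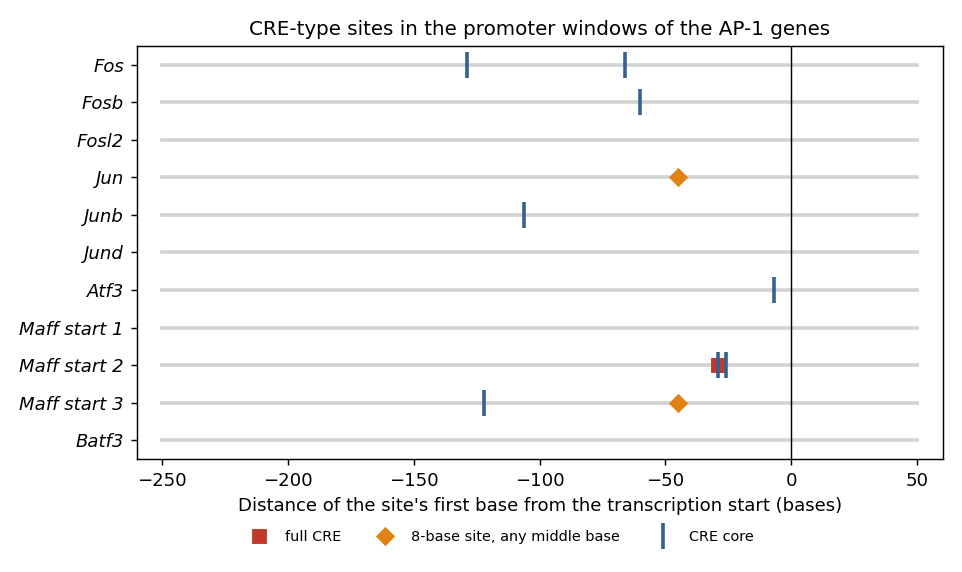
Position of each match in the promoter windows of 9 AP-1 genes, in bases from the transcription start (black line). Squares are the full CRE, diamonds the 8-base site with another middle base and bars the CRE core. *Maff* carries the full CRE at its start 2, and *Fosl2*, *Jund* and *Batf3* carry none of these sites in their windows.

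In the FOS family, the transcription factors that must pair with JUN, the 4 genes differed in direction. *Fosl1* encodes FRA1, a FOS protein without a strong transactivation domain and a common late target of ERK signaling. *Fosl1* (ENSMUSG00000024912, chromosome 19, 5447547 to 5455946, plus strand) had 61.6 FPKM under PRP and 22.6 FPKM under vehicle, from 5024 and 1571 reads. The ratio was 2.72 (95% interval 2.51 to 2.95), the highest of the 10 genes, and its log2 fold change of 1.41 ranked 109th from the top among the 13401 genes. This value is uncertain, since 57.2% of the exon length of *Fosl1* is shared with *Ccdc85b* on the opposite strand. *Ccdc85b* had 36.6 FPKM under PRP and 22.1 FPKM under vehicle, a ratio of 1.66 (1.57 to 1.76). Whether reads were counted by strand is not given in the sources used here, so reads of the shared 1163 bases may belong to either gene.

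*Fosl2* encodes FRA2, the other FOS protein of low transactivating capacity, and it was the 1 lower gene of the 8. *Fosl2* (ENSMUSG00000029135, chromosome 5, 32135801 to 32157842, plus strand) had 10.8 FPKM under PRP and 13.2 FPKM under vehicle, from 4207 and 4351 reads. The ratio was 0.823 (0.775 to 0.874). The log2 fold change was -0.26, which is less than 2-fold. No part of its exons is shared with another gene.

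*Fos*, the founding immediate early gene of the family, was low in both libraries. *Fos* (ENSMUSG00000021250, chromosome 12, 85473890 to 85477273, plus strand) had 3.23 FPKM under PRP and 1.76 FPKM under vehicle, a ratio of 1.84 (1.38 to 2.47) on 305 and 141 reads. Its log2 fold change was 0.62, whereas a pseudocount of 5 gave 0.29. *Fosb* (ENSMUSG00000003545, chromosome 7, 19302696 to 19310051, minus strand), which encodes a FOS protein that also has a shorter form in neurons, had 0.379 and 0.216 FPKM. Its 95 and 46 reads gave a ratio of 1.76 with an interval from 1.06 to 3.06, and both values lay below the filter of 1 FPKM. The CRE cores nearest the start were at -66 in *Fos* (chr12:85473812-85473841) and at -60 in *Fosb* (chr7:19310088-19310117, minus strand), and *Fos* held a further one at -129. These 2 stretches are shown because their genes are the classical immediate early genes of the family.
Fos: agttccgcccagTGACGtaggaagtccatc
Fosb: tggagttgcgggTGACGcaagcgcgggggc

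Summed over the 4 genes, the FOS family had 76.0 FPKM under PRP and 37.8 FPKM under vehicle, a ratio of 2.01. *Fosl1* made up 81.0% of the sum under PRP and 59.9% under vehicle, and *Fosl2* made up 14.2% and 34.9%. Without *Fosl1* the sum was 14.4 FPKM under PRP and 15.1 FPKM under vehicle, a ratio of 0.954. The difference in the FOS sum therefore rested on the gene with the shared exons. *Fos* was 0.298 times *Fosl2* in the PRP library and 0.133 times in the control library.

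In the JUN family, whose members can pair with themselves or with FOS, *Jun* and *Junb* were higher in the PRP library and *Jund* differed by less than counting error. *Jun*, the transactivator of the family and a substrate of JNK, lies on chromosome 4 (ENSMUSG00000052684, 95049034 to 95052222, minus strand). *Jun* had 22.2 FPKM under PRP and 15.9 FPKM under vehicle, a ratio of 1.40 (1.28 to 1.52), from 2845 and 1733 reads. *Junb*, which encodes a weaker transactivator that can restrain JUN, lies on chromosome 8 (ENSMUSG00000052837, 84974484 to 84978718, minus strand). *Junb* had 27.7 FPKM under PRP and 17.5 FPKM under vehicle, a ratio of 1.58 (1.44 to 1.74), from 2555 and 1374 reads. The log2 fold changes were 0.46 for *Jun* and 0.63 for *Junb*, and neither reached 2-fold.

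*Jund* encodes the JUN protein that many resting cells make steadily. *Jund* (ENSMUSG00000071076, chromosome 8, 70698949 to 70700616, plus strand) had 22.0 FPKM under PRP and 21.4 FPKM under vehicle, a ratio of 1.03. Its interval of 0.922 to 1.15, from 1473 and 1220 reads, showed no detectable difference at this depth. *Jund* shares 52.6% of its exon length with the antisense gene *Gm11175*, which lies wholly inside it and had 27.0 FPKM under PRP and 25.3 FPKM under vehicle. Reads of this stretch were either assigned by strand or counted for both genes, so the level of *Jund* is uncertain.

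The JUN sum was 71.9 FPKM under PRP and 54.8 FPKM under vehicle, a ratio of 1.31. *Jund* was the largest part of it in the control library, with 39.1%, followed by *Junb* with 31.9% and *Jun* with 29.0%. *Junb* was the largest part in the PRP library, with 38.5%, against 30.9% for *Jun* and 30.6% for *Jund*. The ratio of *Junb* to *Jund* was 1.26 under PRP and 0.816 under vehicle. The FOS sum was 1.06 times the JUN sum in the PRP library and 0.689 times in the control library, or 0.201 and 0.276 times when *Fosl1* was left out.

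The promoter window of *Jun* held the sequence TGACATCA, a form of the wider site, at -45 (chr4:95052249-95052278, minus strand). The window of *Junb* held a CRE core at -106 (chr8:84978837-84978866, minus strand). The stretches are shown to compare these sites in 2 genes that were higher in the PRP library.
Jun: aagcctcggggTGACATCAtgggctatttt
Junb: gcttcctgacagTGACGcgagccgcctcct

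**Figure D4:**
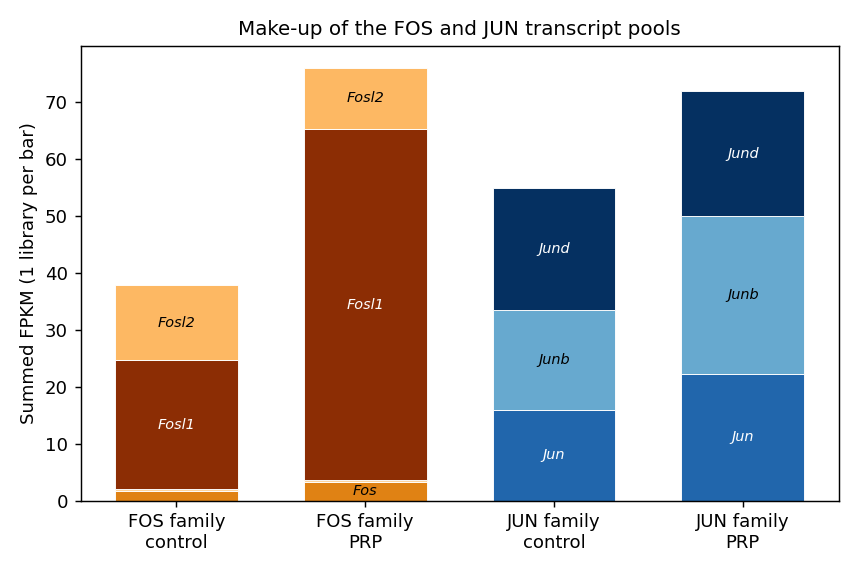
Summed FPKM of the FOS family and of the JUN family in the control and the PRP library, with the part of each gene in its own colour (1 library per bar, no error). The FOS bar goes from 37.8 to 76.0 FPKM with *Fosl1* as the largest part, and the JUN bar goes from 54.8 to 71.9 FPKM.

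*Maff* and *Atf3* both exceeded 2-fold. *Maff* encodes a small MAF protein that lacks a transactivation domain and pairs with NRF factors as well as with FOS. *Maff* (ENSMUSG00000042622, chromosome 15, 79346621 to 79359076, plus strand) had 140.1 FPKM under PRP and 68.2 FPKM under vehicle, from 14583 and 6043 reads. It was the most abundant AP-1 gene in both libraries, at 46.7% and 41.1% of the summed FPKM of all 10 genes (300.2 and 166.1 FPKM), with rank 383 under PRP and rank 793 under vehicle among all genes listed. The ratio was 2.05 (1.97 to 2.14), and the log2 fold change of 1.03 lay just past the threshold.

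*Atf3* encodes a stress-induced factor that often acts as a repressor. *Atf3* (ENSMUSG00000026628, chromosome 1, 191170296 to 191218039, minus strand) had 12.0 FPKM under PRP and 5.14 FPKM under vehicle, from 1035 and 378 reads. The ratio was 2.33 (1.97 to 2.77) and the log2 fold change 1.08. Of the 13401 genes, *Atf3* ranked 214th and *Maff* 246th by fold change. A pseudocount of 5 took both below the threshold, to 0.74 for *Atf3* and 0.99 for *Maff*. Neither gene shares exon length with another gene.

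*Batf3*, a factor known from dendritic cell development, was near the limit of detection. *Batf3* (ENSMUSG00000026630, chromosome 1, 191097847 to 191108945, plus strand) had 0.125 FPKM under PRP and 0.147 FPKM under vehicle, with 8 reads in each. The interval of its ratio ran from 0.158 to 4.57, and no difference was detectable at this depth.

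Start 2 of *Maff* held the full CRE at -29 (chr15:79347480-79347509), and its start 3 held TGACATCA at -45 (chr15:79348346-79348375), the same letters and distance as in *Jun*. Start 3 also held a core at -122, which is not printed here. *Atf3* held a core at -7 (chr1:191183323-191183352, minus strand), which reads CGTCA on the gene's own strand. The gene-level values do not tell which start of *Maff* was used. These stretches are shown because their genes were at least 2-fold higher in the PRP library.
Maff, start 2: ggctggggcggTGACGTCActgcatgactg
Maff, start 3: ctggagccatgTGACATCAgtgtttgttcc
Atf3: ttaatagcattaCGTCAgcctgggattggt

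The study names let-7f-5p and miR-16-5p as microRNAs carried by the exosomes, so the longest 3'UTR of each AP-1 gene in GENCODE M21 was searched for the match to their seeds, bases 2 to 8. The mouse mature sequences (RefSeq, GRCm38.p6) are shown with the seed in capitals.
let-7f-5p: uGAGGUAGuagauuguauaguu
miR-16-5p: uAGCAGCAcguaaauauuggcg

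The let-7f match CTACCTC was in none of the 10 genes, against 9.85% of 10287 genes with a 3'UTR and a mean of at least 1 FPKM. The miR-16 match TGCTGCT was in 1 of the 10 genes, against 24.6%. That gene was *Fosl2*, which held 3 matches, at bases 1775, 2695 and 4510 of a 3'UTR of 4653 bases. With only 10 genes, counts this small are no finding for either microRNA. The 10 genes also include *Fosb* and *Batf3*, whose means were below 1 FPKM, whereas the compared genes were all at or above it. *Fosl2* has the longest 3'UTR of the AP-1 genes, the others running from 310 bases in *Batf3* to 2305 bases in *Fosb*, against a median of 1154 bases over the 10287 genes. The 3 stretches are shown with the match in capitals, since *Fosl2* was also the 1 lower gene of the 8 that passed the filter. The part of these matches in its level was not tested.
Fosl2, match 1: ggctctaactcTGCTGCTctggtctcccag
Fosl2, match 2: ggagctcagacTGCTGCTttcataggcaaa
Fosl2, match 3: tggtaggagctTGCTGCTatggaggaaaga

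Other genes of the pathway were then compared. Of 12 further basic leucine zipper partners, 8 had a mean of at least 1 FPKM, with 5 higher and 3 lower and a median log2 fold change of 0.01. None was 2-fold higher or lower on the log2(FPKM + 1) scale, against 2.00% and 0.828% of all genes. *Mafk*, a second small MAF gene, was closest to the threshold, with 42.8 FPKM under PRP and 21.1 FPKM under vehicle (log2 fold change 0.99), although its ratio without the pseudocount was 2.03 (1.91 to 2.16). *Mafg*, also a small MAF gene, had 10.3 and 8.27 FPKM, and its log2 fold change was 0.28. *Jdp2*, which encodes a JUN dimerization partner that represses AP-1 sites, had 54.3 FPKM under PRP and 40.8 FPKM under vehicle. *Atf2* had 2.65 FPKM in both and counts as higher on its unrounded values alone, and *Atf7* had 2.06 and 2.02 FPKM. *Maf*, a large MAF gene, was lower (8.59 and 9.58 FPKM), as was *Batf2* (2.58 and 4.34 FPKM).

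Of 24 genes for kinases and transcriptional regulators upstream of AP-1, 20 passed the filter, with 13 higher and 7 lower, beside 6815 and 6586 of all genes. Their median log2 fold change was 0.09. None was 2-fold higher or lower on this scale, against 2.00% and 0.828% of all genes. At shares this low, finding none among 20 genes does not set them apart. *Elk1*, a partner of serum response factor, had the largest upward value at 0.44, followed by the p38 kinase kinase *Map2k3* at 0.41 and *Elk4* at 0.30. *Mapk3*, which encodes ERK1, was lowest at -0.76, with 13.7 FPKM under PRP and 24.0 FPKM under vehicle, and *Elk3* followed at -0.25. These are transcript levels and carry no information on phosphorylation.

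Genes known as AP-1 targets were compared next. Of 18 such genes 17 passed it, 14 higher and 3 lower, with a median log2 fold change of 0.70. *Ptgs2*, *Mmp3* and *Hbegf* were at least 2-fold higher, that is 3 of 17 genes against 2.00% of all genes, and none was 2-fold lower, against 0.828%. As given above, 6815 of all 13401 genes were higher. The list was chosen with results of these data known, so its counts are a description. *Ptgs2*, which encodes the inducible cyclooxygenase, had 19.3 FPKM under PRP and 5.63 FPKM under vehicle. The stromelysin gene *Mmp3* had 30.6 and 9.89 FPKM, and the EGF receptor ligand gene *Hbegf* had 3.31 and 0.854 FPKM. *Spp1*, the gene of osteopontin, was lowest, with 149.0 FPKM under PRP and 253.4 FPKM under vehicle (log2 fold change -0.76), and the cyclin gene *Ccnd1* followed with 28.6 and 43.7 FPKM (-0.59). *Spp1* shares 18.8% and *Ccnd1* 23.4% of their exon length with other genes, so both values carry that uncertainty.

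Other immediate early genes had a median of 0.62, close to that of the AP-1 genes. Of 20 such genes 16 passed it, with 15 higher and 1 lower, beside 6815 and 6586 of all genes. *Gadd45b*, a stress-response gene, had 46.8 FPKM under PRP and 12.8 FPKM under vehicle, a log2 fold change of 1.80. *Klf10* (6.79 and 2.59 FPKM) and *Ier3* (12.3 and 5.31 FPKM) were also at least 2-fold higher, which makes 3 of 16 against 2.00% of all genes. This list too was chosen with results known. *Rhob* was the lower one, with 8.79 and 8.85 FPKM.

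**Figure D5:**
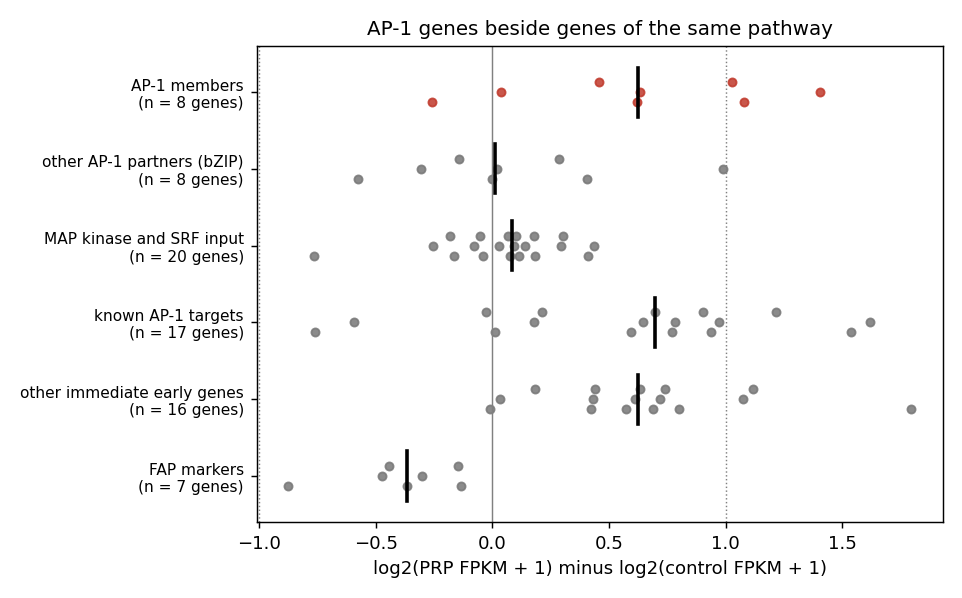
Log2 fold change, log2(PRP FPKM + 1) minus log2(control FPKM + 1), of each gene with a mean of at least 1 FPKM in the AP-1 set (red) and in 5 related lists (grey), with the median of each as a black bar and 2-fold differences as dotted lines. The medians are 0.63 for the AP-1 genes, 0.01 for other partners, 0.09 for the kinases and transcriptional regulators, 0.70 for AP-1 targets, 0.62 for other immediate early genes and -0.37 for FAP markers.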

How the data were processed

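RNA was extracted with TRIzol and sequenced from stranded mRNA libraries. Per the labels and methods, reads were trimmed with fastp (0.23.4), mapped to mm10 with STAR (2.5.3a) and counted with featureCounts. The deposited values are FPKM, which the authors computed per gene from reads, exon length and library total. The annotation release is not given in the sources used here.

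The 10 genes and the gene lists were chosen with earlier results of these data known. With 1 library per group no test was run. Fold changes used a pseudocount of 1 and a minimum mean of 1 FPKM. All genes of the set are named, and of each list at most the 3 highest and the 2 lowest, with the dimer partners that passed the filter, of which 1 is not reported here. Cell type markers with a mean below 1 FPKM were named after their values were seen. The CRE core, the site TGACNTCA and the microRNA matches were added after the values were seen.

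Exon lengths and coordinates came from GENCODE M21 (GRCm38), with an entry for 41464 genes (93.6%). Of 28152 such genes above 0, 93.8% gave whole reads in both libraries, within 0.001 reads. *Jund* did so with an exon length of 1667 bases in place of 1668. Read numbers up to 8 were even in 79.3% (PRP) and 80.3% (control) of genes, so fragments were taken as reads divided by 2. Poisson and Clopper-Pearson 95% intervals on fragments cover counting error only and ignore PCR duplicates. The procedures were tested on simulated data with Python 3.11.15, NumPy 2.4.6, pandas 2.3.3, SciPy 1.17.1 and matplotlib 3.10.9. Alternatives were other pseudocounts, filters, scalings and fold thresholds, intervals on reads and, in part chosen after seeing the data, the removal of genes with 50% or more of their exons inside another gene.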

Additional observations from a re-analysis of the deposited data

How the results depend on the processing

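No paired analysis was possible because the PRP and the control group hold 1 library each. With a pseudocount of 5 the number of AP-1 genes at least 2-fold higher was 1, *Fosl1*, and the median log2 fold change was 0.46. At 1.5-fold there were 5 such genes, and at 4-fold there were 0. Without a filter on low values 2 genes were lower, *Fosl2* and *Batf3*. Without *Fosl1* and *Jund*, *Atf3* and *Maff* were the genes past 2-fold and the median was 0.63. Over 8 settings of pseudocount, filter and scaling, *Fosl1* ranged from 1.27 to 1.44, *Maff* from 0.99 to 1.04, *Atf3* from 0.74 to 1.20, *Jund* from 0.01 to 0.04 and *Fosl2* from -0.31 to -0.20. Over all genes the median stayed within -0.02 and 0.01. The counts of all genes at least 2-fold higher and lower were 268 and 111 in the main setting. They were 471 and 268 with a pseudocount of 0.1 and 84 and 29 with a pseudocount of 5. Rescaling to a common sum gave 380 and 216, or 391 and 247 when mitochondrial and top genes were also left out of that sum. Both rescalings also made the values larger, so the pseudocount of 1 weighed less, and their counts do not show scaling alone. Centring on the median gene without rescaling gave 263 and 114. Intervals on reads gave the same counts, 6 genes above 1 and 1 below. With no replicate, spread between cultures is unknown.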

Other observations

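Smaller stretches of 2 further AP-1 genes overlap neighbours. *Junb* shares 7.52% of its exon length with *Prdx2*, a peroxiredoxin gene on the opposite strand, which had 17.5 FPKM under PRP and 17.0 FPKM under vehicle. *Jun* shares 7.28% with its antisense gene *Junos*, which had 0.646 FPKM under PRP and 0.309 FPKM under vehicle.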
